A study of Mus musculus with 12 samples.

Results

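Interscapular brown adipose tissue was compared with posterior subcutaneous white adipose tissue of wild type mice, across all genes. The comparison used 4 of 12 libraries of polyadenylated RNA, 2 of brown and 2 of white, chosen by the wild type genotype in their labels. In the other 8 libraries the same depots came from mice with 1 or 2 copies of the Ucp1-CreEvdr transgene, a bacterial artificial chromosome with Cre under Ucp1 control, meant for brown and beige adipocytes. The wild type mice carried 0 copies. All mice were bred in house, fed chow, kept at room temperature without treatment and killed in the morning at 6 weeks of age. Neither sex nor strain is in the labels. Levels are given as CPM, which are counts scaled to the total and composition of each library. Xist, the RNA of the inactive X chromosome, ran from 374 to 873 CPM over the 12 libraries, and the Y-linked Ddx3y, Kdm5d, Eif2s3y and Uty never passed 0.189 CPM. The labels do not tie the 2 libraries of a group to separate mice, so the spread behind the p-values is that of the libraries alone and may be technical.

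Brown adipocytes hold many small lipid droplets and dense mitochondria, and uncoupling protein 1 (Ucp1) lets their inner mitochondrial membrane leak protons so that fuel is burned as heat. White adipocytes store triglyceride in a single large droplet, release fatty acids and secrete hormones such as leptin. Posterior subcutaneous (inguinal) fat also holds beige adipocytes, which can turn on the thermogenic genes, and in female mice the mammary gland lies within the same pad. Interscapular brown fat lies against the muscles of the back, so fibres can come away with the depot. In such bulk samples fewer cells of a type and less RNA per cell cannot be told apart.

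Total counts were 17976280 and 31814056 in the brown libraries and 20432727 and 20174324 in the white ones. Of 24541 rows, 15559 genes passed the filter on low counts and were tested. On log2 CPM the pairs correlated at 0.990 (brown) and 0.987 (white), yet differed by more than sampling noise, with a chi-square of 35.1 and 37.7 per degree of freedom. The difference between depots reached most of the transcriptome: 9507 genes (61.1%) had an adjusted p below 0.05 in edgeR's quasi-likelihood test, which is what "called" means below. Of these, 4505 (29.0%) were higher in brown and 5002 (32.1%) higher in white. The median over all tested genes was -0.04 on the log2 scale, brown minus white. Large differences lay more often on the white side: 1845 called genes were at least 2-fold higher in brown against 3430 in white, and at least 16-fold 164 against 638. The CPM ranges of the depots did not overlap for 12279 of the tested genes (78.9%), so a count of members without overlap is read against that share. Over the 12 libraries the first principal component (77.8% of variance) separated the depots, and the second (11.2%) set the wild type white libraries apart from the other 10.

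The labelled tissues were checked against markers of their defining cells. Of the 5 brown adipocyte markers, Ucp1, Cidea, Cox7a1, Cox8b and the transcription factor Zic1 were all called higher in brown. Of the white markers, leptin (Lep), resistin (Retn) and neuronatin (Nnat) were all called higher in white. The 3 markers of any adipocyte were close in both depots. The adipokine gene Adipoq stood at 1475 and 1394 CPM in brown and 1859 and 1649 in white (log2 difference -0.29 ± 0.17, adjusted p = 0.162, where ± here and below is the standard error with 2 libraries per depot), the fatty acid binding protein gene Fabp4 at 8833 and 8107 against 7475 and 6979 (0.23 ± 0.19, adjusted p = 0.312), and the droplet coat gene Plin1 at 1502 and 1463 against 1165 and 1126 (0.37 ± 0.16, adjusted p = 0.0605). None of these 3 was called, although the CPM ranges of each did not overlap. Plin1 was called, higher in brown, with DESeq2 and without either two-copy white library, and turned to -0.12 with a muscle covariate described below.

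Thermogenic genes set the depots apart. Of 35 tested genes of the thermogenic list, 32 were called higher in brown and 1 in white, with a median difference of 3.65 on the log2 scale. Ucp1 stood at 9064 and 7180.3 CPM in brown and at 14.9 and 190.2 in white. All brown values lay far above the white ones, but the white libraries differed from each other by more than an order of magnitude. The one-copy white libraries, which share the estimate of spread, lay further apart, at 90.0 and 1.24 CPM. Both gaps go with the wide error of the difference between wild type depots (6.31 ± 1.85 (SE) on the log2 scale, adjusted p = 0.0202). Without white replicate 1 it was 5.42 (adjusted p = 0.092) and no longer called, without white replicate 2 it was 9.09 (adjusted p = 0.0321), and with the mean log2 CPM of skeletal muscle genes as a covariate (the muscle covariate below) it turned to -2.08 (adjusted p = 0.567). Cidea, a lipid droplet protein abundant in brown fat, was at 2345 and 2471 CPM in brown and 67.4 and 156 in white (log2 difference 4.43 ± 0.58, adjusted p = 0.000259). The same order held for Dio2, the deiodinase that activates thyroid hormone within the cell: 664 and 811 against 8.07 and 31.2 (5.23 ± 1.08, adjusted p = 0.00417). Elovl3, a fatty acid elongase of brown fat, was at 123 and 70.5 against 2.06 and 5.93 (4.59 ± 0.77, adjusted p = 0.00132), with -0.17 (adjusted p = 0.949) under the muscle covariate. Under it Dio2 gave 1.01 (adjusted p = 0.711) and Cidea 2.16 (adjusted p = 0.0537), so neither was called, and the thermogenic list gave 16 and 0 of 35 (median 2.09) higher in brown and in white. Within groups that covariate varied most in the one-copy white pair (by 4.33 on the log2 scale, next largest 1.66), so its slope rests mostly on that pair. There replicate 1 held more muscle RNA (0.360% against 0.0174% of counts) and also more Ucp1. The covariate overlaps with depot and left 22.5% of all genes called (9.40% higher in brown and 13.1% in white). List counts under it are given below as the number higher in brown and the number higher in white. In Ucp1, Cidea, Dio2 and Elovl3 alike, white replicate 2 was the higher white library, and without it the differences of Cidea, Dio2 and Elovl3 were 5.17, 6.52 and 5.55 (without replicate 1 Dio2 gave 4.56).

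Steadier members of the list gave small errors. The calcium-binding protein gene S100b was at 76.5 and 81.4 CPM in brown and 8.16 and 8.56 in white (log2 difference 3.24 ± 0.14, adjusted p = 3.51e-07). Letmd1, a mitochondrial protein needed for brown fat thermogenesis in mice, was at 1071 and 949 against 67.5 and 93.4 (3.65 ± 0.20, adjusted p = 5.31e-07). The mitochondrial deacetylase Sirt3 was at 89.2 and 98.6 against 14.3 and 18.1 (2.54 ± 0.14, adjusted p = 6.13e-07), and kininogen 2 (Kng2) at 81.6 and 153 against 1.14 and 1.74 (6.35 ± 0.34, adjusted p = 1.01e-06). In all 4 genes the brown values lay several-fold above the white ones, and in all but Kng2 the replicates were close together. A pair of brown regulators differed less. Prdm16, a coregulator of brown fate, was at 92.4 and 51.4 against 21.8 and 22.2 (1.70 ± 0.23, adjusted p = 0.000146), and the transcription factor Ebf2 at 78.3 and 147 against 30.7 and 37.1 (1.74 ± 0.31, adjusted p = 0.0012). The exceptions in the list were the beta-3 adrenergic receptor Adrb3, at 447 and 291 against 601 and 514 (-0.60 ± 0.27, adjusted p = 0.0826), and the homeobox gene Lhx8, at 3.32 and 3.55 against 5.70 and 3.03 (-0.34 ± 0.38, adjusted p = 0.451), neither called. Adrb3 was called higher in white with DESeq2, without brown replicate 1 and without either two-copy white library. The member called higher in white was Eva1b (-0.76 ± 0.18, adjusted p = 0.00443), named after its value was seen. The calls of Prdm16, Ebf2 and Eva1b were lost under the muscle covariate (adjusted p = 0.0893, 0.122 and 0.318).

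**Figure D1:**
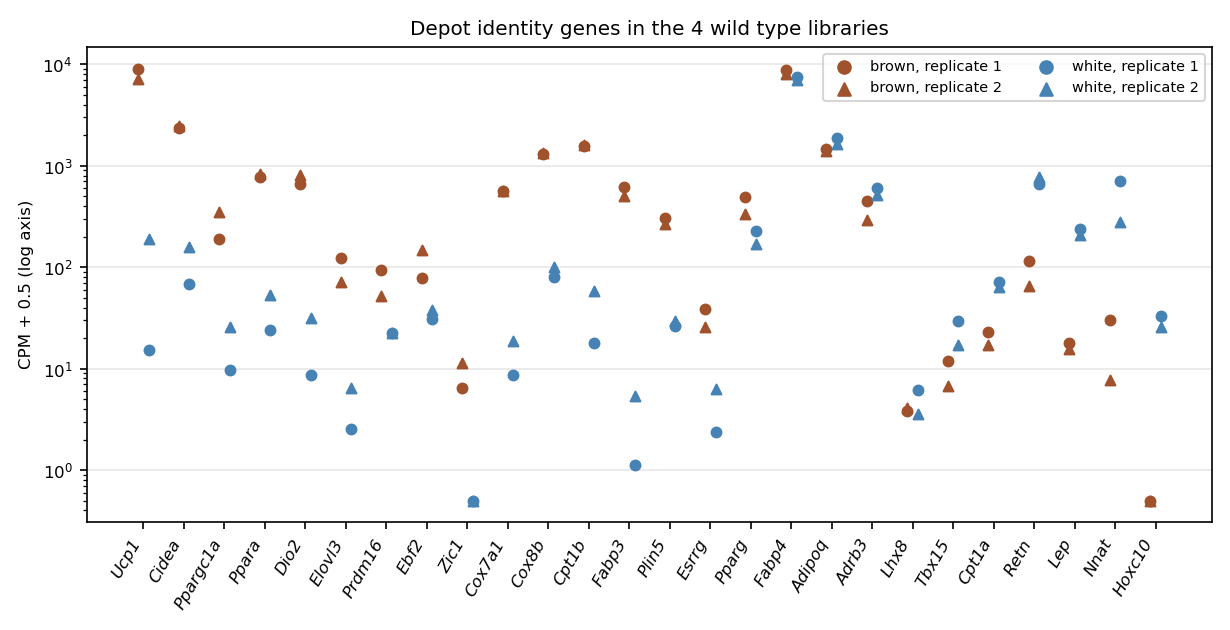
CPM plus 0.5 on a log axis for 26 depot identity genes in the 4 wild type libraries, circles for replicate 1 and triangles for replicate 2. Ucp1, Cidea, Dio2 and Cpt1b lie far higher in brown, Fabp4, Adipoq and Adrb3 lie close together, and Lep, Retn, Nnat and Hoxc10 lie higher in white.

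Of 26 tested members of the white adipocyte list, 22 were called higher in white and 2 in brown (median -1.91). Leptin, the satiety hormone of fat, was at 237 and 207 CPM in white and 17.6 and 15.2 in brown, higher in white by 3.77 ± 0.96 (SE) on the log2 scale, adjusted p = 0.011. The pairs were tight in these 4 libraries, but the 4 transgenic brown libraries ran from 0.999 to 87.1 CPM, and without brown replicate 1 or 2 the adjusted p was 0.0509 or 0.0678. Resistin was at 667 and 778 in white against 114 and 65.4 in brown (by 3.01 ± 0.62 (SE) on the log2 scale, adjusted p = 0.00381). Neuronatin, an imprinted endoplasmic reticulum protein, was at 699.8 and 276 against 29.6 and 7.21 (by 4.77 ± 0.96 (SE) on the log2 scale, adjusted p = 0.0037), with a difference (brown minus white) from -3.95 to -6.08 when 1 wild type library was left out. The matrix protein gene Dpt and the retinaldehyde dehydrogenase gene Aldh1a1 were higher in white by 3.25 (adjusted p = 7.61e-07) and 2.48 (adjusted p = 2.24e-06). The serine synthesis enzyme Psat1 followed with 3.20 (adjusted p = 6.33e-06), gamma-synuclein (Sncg) with 4.62 (adjusted p = 1.54e-05) and chemerin (Rarres2) with 1.81 (adjusted p = 1.11e-05). The members called higher in brown were Trim66 (1.86 ± 0.37, adjusted p = 0.0014) and P2rx5 (2.80 ± 0.29, adjusted p = 4.72e-05), an ATP-gated channel that is itself known as a marker of brown adipocytes. Under the muscle covariate the list gave 1 and 12 of 26 (median -2.06), and Lep (-1.88 (adjusted p = 0.473)), Retn (-3.64 (adjusted p = 0.0793)), Nnat (-4.18 (adjusted p = 0.143)) and Trim66 (1.53 (adjusted p = 0.227)) were not called.

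The 250 bases upstream of Lep are shown because they hold the palindrome TTGCGCAA, the core that C/EBP factors are known to bind in fat cells, which 0.293% of 11943 promoters of tested genes held. Promoter sequence here is from RefSeq on build GRCm38.p6, read 5′ to 3′ on the gene's strand, and capitals mark the motif on either strand. Lep (chr6:29059971-29060220, plus strand):
Lep: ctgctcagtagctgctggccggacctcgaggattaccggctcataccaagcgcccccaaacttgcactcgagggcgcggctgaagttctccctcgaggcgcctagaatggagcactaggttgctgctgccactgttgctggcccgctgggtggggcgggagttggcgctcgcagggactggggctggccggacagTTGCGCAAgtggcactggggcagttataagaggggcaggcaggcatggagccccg

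Genes shared by all adipocytes differed less. Of 23 tested, 11 were called higher in brown and 1 in white, with a median of 0.45. Pparg, the master regulator of adipocyte formation, was at 488 and 333 CPM in brown and 229 and 168 in white (1.05 ± 0.18, adjusted p = 0.000674). The triglyceride lipase gene Pnpla2 was at 5699.8 and 4727 against 2057 and 1952 (1.38 ± 0.17, adjusted p = 6.93e-05), and its inhibitor G0s2 was higher too (1.53 ± 0.20, adjusted p = 0.000104). The insulin-responsive glucose transporter Slc2a4 (1.38 ± 0.23, adjusted p = 0.000568) and the glycerol channel Aqp7 (0.92 ± 0.13, adjusted p = 0.000164) were also higher in brown. Plin4 was the member called higher in white (-0.99 ± 0.32, adjusted p = 0.0242), a call lost without brown replicate 2 or white replicate 1 (adjusted p = 0.152 and 0.17). Under the muscle covariate the list gave 0 and 0 of 23 (median -0.07). Pparg gave 0.92 (adjusted p = 0.142) and Pnpla2 0.77 (adjusted p = 0.0729), and G0s2, Slc2a4, Aqp7 and Plin4 lost their calls as well.

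Positional genes differed in both directions. Hox genes, which mark the place of a cell along the head-to-tail axis, lie in clusters in which low numbers are anterior and high numbers posterior. Of 39 Hox genes 28 passed the filter, and 17 were called higher in white and 4 in brown. Hoxc10 had 0 counts in both brown libraries and 32.2 and 25.1 CPM in white, at least 391-fold higher in white with brown set at 3 counts over the group. Hoxc9 was likewise at 0 in brown and at 11.8 and 11.5 in white, at least 159-fold higher. Hoxa9 was at 17 and 16.7 in white against 0.138 and 0.189 in brown (by 6.58 ± 0.39 (SE) on the log2 scale, adjusted p = 7.61e-07). The members called higher in brown carried low numbers: Hoxa4 at 13.7 and 19 against 2.63 and 2.72 (2.62 ± 0.19, adjusted p = 2.24e-06), Hoxc5 at 23.7 and 23.4 against 6.10 and 7.40 (1.80 ± 0.16, adjusted p = 6.3e-06), and Hoxa5 and Hoxc4, with 1.87 and 1.41. These last 2 were named after their values were seen. All 4 lie in clusters A and C. Low numbers were not confined to brown: Hoxb2, Hoxb3, Hoxd3 and Hoxd4, also named afterwards, were among the 17 called higher in white. The Hox genes gave 4 and 5 of 28 (median -1.24) under the muscle covariate.

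Other patterning transcription factors divided in the same manner, with 22 of 37 tested called higher in white and 6 in brown. Zic1, a zinc finger gene of the dorsal midline lineage, was at 5.95 and 10.9 CPM in brown and had 0 counts in both white libraries, at least 138-fold higher in brown. Among the genes higher in white, the homeobox genes Irx2 and Irx1 differed by 7.17 (adjusted p = 3.51e-07) and 5.73 (adjusted p = 5.23e-06). The mesenchymal gene Prrx1 was at 87.5 and 72.4 in white against 11.6 and 14.7 in brown (by 2.60 ± 0.17 (SE) on the log2 scale, adjusted p = 1.5e-06), and Osr1 differed by 4.37 (adjusted p = 1.3e-05). Gata3, which epithelia and lymphocytes also express, was at 70.1 and 86.3 against 0.415 and 0.189 (by 8.14 ± 0.44 (SE) on the log2 scale, adjusted p = 9.78e-07). Tbx15 was at 29 and 16.4 in white and 11.3 and 6.31 in brown (by 1.39 ± 0.39 (SE) on the log2 scale, adjusted p = 0.0111), a call lost without brown replicate 2 (adjusted p = 0.089) or white replicate 1 (adjusted p = 0.0871). Without brown replicate 2 the differences (brown minus white) were -7.88 for Irx2, -7.31 for Irx1 and -7.54 for Gata3, and Osr1 ran from -3.63 without brown replicate 2 to -5.25 without brown replicate 1. The white libraries also held epithelial RNA (0.253% and 0.317% of counts, described below), whose part in the differences of Irx1, Irx2 and Gata3 was not tested. Tcf21, known from white preadipocytes, and Wt1, of visceral fat, did not pass the filter, with at most 0.134 CPM in any of the 4 libraries. The patterning list gave 2 and 16 of 37 (median -1.45) under the muscle covariate, with Tbx15 not called.

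The receptors and coactivators that drive mitochondrial genes were mostly higher in brown, 14 of 21 tested against 3 in white (median 0.83). PGC-1alpha (Ppargc1a), the inducible coactivator of mitochondrial biogenesis, was at 188 and 351 CPM in brown and 9.26 and 25.5 in white (3.96 ± 0.50, adjusted p = 0.000259). PGC-1beta (Ppargc1b) was at 177 and 136 against 9.52 and 14.5 (3.70 ± 0.22, adjusted p = 1.1e-06). Of the oestrogen-related receptors, which bind AAGGTCA and work with these coactivators, Esrra was at 293 and 288 against 51.7 and 60.9 (2.37 ± 0.11, adjusted p = 4.07e-07) and Esrrg at 38.2 and 25 against 1.89 and 5.75 (3.04 ± 0.41, adjusted p = 0.000203). Ppara, the receptor that turns on fatty acid oxidation, was at 771 and 827 against 23.3 and 52.6 (4.40 ± 0.61, adjusted p = 0.000446). Without white replicate 2, in which Ppargc1a, Ppara and Esrrg were higher than in replicate 1, their differences were 4.87, 5.10 and 4.06, and without replicate 1 Esrrg gave 2.45. Perm1, known from muscle as a regulator of PGC-1 and ERR targets, was at 69.3 and 62 against 1.10 and 0.981 (5.97 ± 0.41, adjusted p = 4.36e-06), and at 73.8 to 149 CPM in the 4 transgenic brown libraries, where skeletal muscle genes took at most 0.0195% of counts. Under the muscle covariate the list gave 8 and 2 of 21 (median 0.88), and Ppara (1.99 (adjusted p = 0.0945)) and Esrrg (2.53 (adjusted p = 0.0863)) were not called.

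The letters AAGGTCA stood in 5.31% of the promoters of genes at least 2-fold higher in brown, in 4.09% of those at least 2-fold higher in white and in 3.81% of all. The promoters of Perm1 (chr4:156215677-156215926, plus strand) and of Acadm, the medium-chain acyl-CoA dehydrogenase (chr3:153944644-153944893, minus strand), are shown as 2 of those that hold it, picked for that reason.
Perm1: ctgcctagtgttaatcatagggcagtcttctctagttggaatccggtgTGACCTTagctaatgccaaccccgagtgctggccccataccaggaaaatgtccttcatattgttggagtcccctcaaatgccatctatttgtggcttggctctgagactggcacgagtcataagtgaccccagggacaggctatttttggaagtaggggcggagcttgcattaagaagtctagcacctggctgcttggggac
Acadm: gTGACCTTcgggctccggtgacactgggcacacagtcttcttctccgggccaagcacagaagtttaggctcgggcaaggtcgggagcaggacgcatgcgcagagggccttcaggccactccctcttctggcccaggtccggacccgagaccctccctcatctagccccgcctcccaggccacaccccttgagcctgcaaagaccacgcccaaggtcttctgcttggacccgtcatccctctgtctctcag

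Respiratory chain genes were higher in brown almost without exception. All 37 tested complex I genes were called higher in brown (median 2.04), as were all 14 of complexes II and III (2.42) and 15 of 16 of cytochrome c oxidase (2.15). The exception was Cox4i2 (0.52 ± 0.25, adjusted p = 0.0904), an oxygen-regulated isoform. Ndufs7, a complex I subunit, was at 533 and 535 CPM in brown and 93.2 and 102 in white (2.45 ± 0.09, adjusted p = 3.43e-07). The complex II subunit Sdhb was at 1241 and 1396 against 179.5 and 203 (2.79 ± 0.13, adjusted p = 3.97e-07), and Uqcrc1 of complex III at 2189.8 and 2297 against 278 and 328 (2.89 ± 0.15, adjusted p = 5.03e-07). Cox5a of cytochrome c oxidase was at 1046 and 1130.3 against 168 and 192 (2.60 ± 0.12, adjusted p = 3.51e-07). Each of these genes was several-fold higher in brown with replicates close together. Together the 85 listed genes of the chain and the ATP synthase took 6.03% and 6.37% of counts in brown and 1.73% and 1.93% in white.

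The ATP synthase divided: 14 of 17 genes were called higher in brown and 3 in white (median 1.79). Atp5d was at 1132 and 1189 CPM against 229 and 217 (2.38 ± 0.10, adjusted p = 3.51e-07) and Atp5j2 at 853 and 807 against 167 and 175 (2.28 ± 0.12, adjusted p = 4.41e-07). Atpif1, which is not a subunit but the inhibitor of the enzyme, was at 10.2 and 11.5 in brown and 43.3 and 42.1 in white (higher in white by 1.97 ± 0.11 (SE) on the log2 scale, adjusted p = 6.13e-07). The other 2 higher in white, named after their values were seen, both encode the c subunit of the membrane ring: Atp5g1 at 26.8 and 10.8 in brown against 58.6 and 47.8 in white (-1.53 ± 0.34, adjusted p = 0.00418) and Atp5g3 at 215 and 227 against 331 and 321 (-0.56 ± 0.09, adjusted p = 0.000302). Without brown replicate 1 the difference of Atp5g1 was -2.30. Its call was lost under the muscle covariate (adjusted p = 0.0941). The Atp5g genes encode the same mature protein from separate genes, and how the authors' counting treated reads shared with related sequences is not known.

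Fuel oxidation followed the same direction. In the TCA cycle 25 of 26 genes were called higher in brown (median 2.39), with the NADP-dependent Idh2 at 542 and 635 CPM against 106 and 104 (2.49 ± 0.11, adjusted p = 3.51e-07). Suclg1, a succinyl-CoA ligase subunit, was at 1579 and 1652 against 129 and 161 (3.48 ± 0.15, adjusted p = 3.51e-07). The member not called was pyruvate carboxylase (Pcx), at 2250.2 and 1757 against 2079 and 2733 (-0.26 ± 0.20, adjusted p = 0.265), which also feeds lipid synthesis. Of the mitochondrial fatty acid oxidation genes 22 of 24 were higher in brown and 2 in white (median 2.43). Acadvl, the very long-chain dehydrogenase, was at 3786 and 3595 against 324 and 423 (3.30 ± 0.21, adjusted p = 1.1e-06), and Acadm at 3063 and 3113 against 412 and 515 (2.74 ± 0.20, adjusted p = 2.22e-06). The 2 higher in white, Cpt1a and Cpt1c (-1.79 and -2.31), are the non-muscle forms of carnitine palmitoyltransferase 1. Branched-chain amino acid breakdown gave 25 of 26 in brown (median 1.40), with Acad8 at 115 and 121 against 38.6 and 41.1 (1.57 ± 0.08, adjusted p = 4.96e-07). The exception was Bcat1, the cytosolic transaminase, higher in white (-2.76 ± 0.36, adjusted p = 8.7e-05). Peroxisomal oxidation was less one-sided, with 16 of 22 in brown, 1 in white and a median of 0.70. Of the Slc25 carriers of the inner membrane, 26 of 43 were higher in brown and 8 in white. The peroxisomal list gave 4 and 1 of 22 (median 0.35) under the muscle covariate, and the carriers 15 and 3 of 43 (median 0.62).

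Ribosomal genes divided by compartment. Of the mitochondrial ribosome 75 of 77 tested genes were called higher in brown and 0 in white (median 1.19), with Mrps36 at 121 and 121 CPM against 16.1 and 18.6 (2.80 ± 0.13, adjusted p = 3.51e-07). Of the cytosolic ribosome 28 of 39 were called higher in white and 1, Rplp2 (0.48 ± 0.12, adjusted p = 0.00644), in brown, with a median of -0.45. Rpl4 was at 358 and 393 in brown and 658 and 659 in white (higher in white by 0.81 ± 0.10 (SE) on the log2 scale, adjusted p = 5.01e-05). These differences were small beside those of the mitochondrial genes. With the muscle covariate the cytosolic ribosome gave 0 and 4 of 39 (median -0.40) and the mitochondrial ribosome 62 and 0 of 77 (median 1.11), and Rplp2 was not called.

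Several enzymes exist as a form of heart, muscle or brown fat and a widespread form, and the balance was compared as the share of the first in the pair's CPM per kilobase of exon. Cox7a1, the heart and muscle form of a cytochrome c oxidase subunit, made up 61.4% and 57.3% in brown and 7.39% and 14.4% in white, beside Cox7a2. Cox8b made up 61.2% and 62.6% in brown and 24.7% and 29.1% in white, beside Cox8a. For carnitine palmitoyltransferase the muscle form Cpt1b made up 99.1% and 99.3% in brown and 26.8% and 57.8% in white, so the white replicates differed widely. Fabp3, the heart form, made up 7.06% and 6.3% in brown and 0.00894% and 0.0764% in white of the pair with the far more abundant Fabp4. The droplet protein Plin5, which tethers mitochondria, made up 16.9% and 20% in brown and 5.18% and 4.88% in white, beside Plin2. In all 5 pairs the brown values lay above the white ones, and the 4 transgenic brown libraries, in which muscle RNA was scarce, gave shares of 58.1% to 61.3% for Cox7a1, 56.4% to 62.4% for Cox8b, 98.9% to 99.2% for Cpt1b, 5.21% to 6.32% for Fabp3 and 20.1% to 33.6% for Plin5.

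As levels, Cox7a1 was at 557 and 558 CPM in brown and 8.11 and 18.2 in white (5.41 ± 0.55, adjusted p = 7.58e-05), Cox8b at 1311 and 1338 against 80.4 and 100.2 (3.87 ± 0.31, adjusted p = 7.76e-06) and Cpt1b at 1579 and 1607 against 17.3 and 58.1 (5.40 ± 0.75, adjusted p = 0.000461). Cpt1a ran the other way, at 22.5 and 16.5 against 70.4 and 63.3 (-1.79 ± 0.18, adjusted p = 2.19e-05). Fabp3 was at 616 and 501 against 0.614 and 4.90 (7.66 ± 1.22, adjusted p = 0.00112). Without white replicate 2 the differences of Cox7a1, Cpt1b and Fabp3 were 6.11, 6.53 and 9.82, and without white replicate 1 Cpt1b gave 4.78 and Fabp3 6.83. Plin5 was at 303 and 267 against 25.8 and 29.3 (3.37 ± 0.45, adjusted p = 0.00031). With the muscle covariate Fabp3 gave 1.5 (adjusted p = 0.649), Cpt1b 2.84 (adjusted p = 0.0768) and Plin5 0.95 (adjusted p = 0.0618), and these 3 calls were lost. A second set of pairs behaved otherwise. Atp2a1, the fast-muscle calcium pump, made up 68% and 48% in brown and 0.055% and 0.44% in white beside Atp2a2, but 0% to 0.156% in transgenic brown. The muscle creatine kinase Ckm made up 78.4% and 54.7% in brown and 0% and 0.304% in white beside Ckb and had 0 counts in transgenic brown. Cox6a2 made up 0.718% and 0.222% in brown and 0% and 0.0173% in white beside Cox6a1 and had 0 counts in transgenic brown. The high shares of Atp2a1 and Ckm were thus found in the wild type brown libraries and in none of the transgenic brown ones, but Atp2a1 also reached 74.9% and Ckm 84% in a one-copy white library. The share of Cox6a2 was small throughout and ran from 0.478% to 1.58% in transgenic white. Esrrg, beside Esrra, gave overlapping shares of 4.89% and 3.31% in brown and 1.42% and 3.59% in white.

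**Figure D2:**
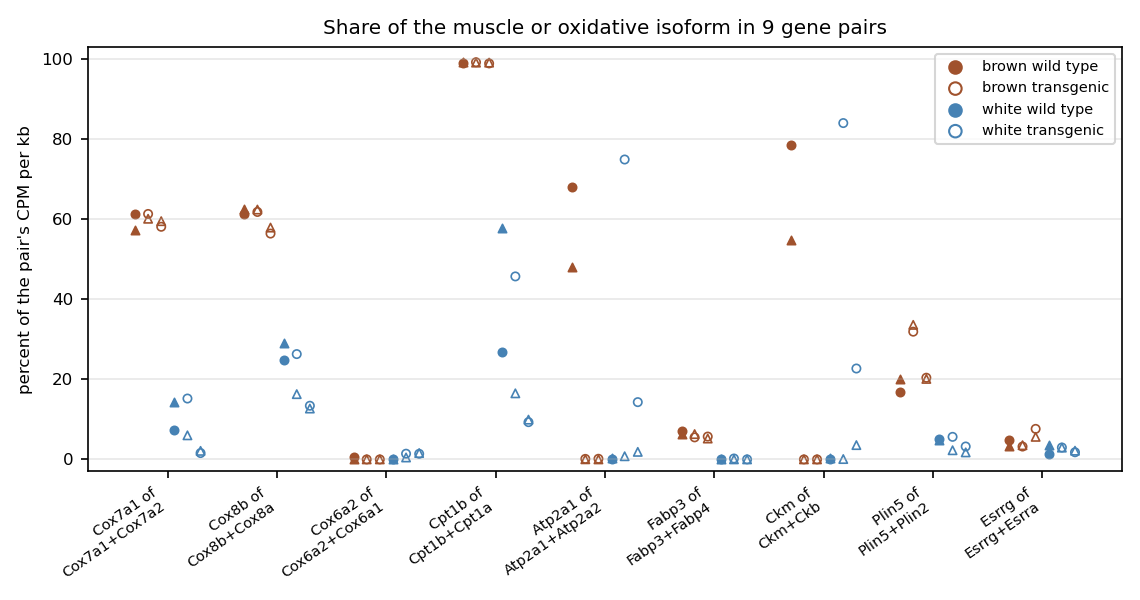
Percent of a pair's CPM per kilobase carried by its first gene, for 9 pairs in the 12 libraries, with filled symbols for wild type, open ones for transgenic libraries and triangles for replicate 2. For Cox7a1, Cox8b and Cpt1b all brown libraries sit together above the white ones, whereas for Atp2a1 and Ckm the 2 wild type brown libraries and single transgenic white libraries stand high.

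Lipid and sugar handling moved less uniformly. In triglyceride synthesis and droplet proteins 18 of 27 tested genes were higher in brown and 4 in white (median 1.14), with glycerol-3-phosphate dehydrogenase Gpd1 at 15428 and 11659 CPM against 1589 and 2397 (2.76 ± 0.26, adjusted p = 1.06e-05). In lipolysis and fatty acid uptake the counts were 14 and 5 of 27, with the acyl-CoA synthetase Acsl5 at 939 and 742 against 85.4 and 101 (3.17 ± 0.15, adjusted p = 3.51e-07). De novo lipogenesis gave 9 and 5 of 22. In it the acetyl-CoA synthetase Acss1 of mitochondria and the carboxylase Acacb were higher in brown (4.12 and 2.17), whereas the desaturase Fads1 and the elongase Elovl1 were higher in white (-1.81 and -1.38). Glycolysis and glucose uptake gave 20 and 4 of 29, with lactate dehydrogenase Ldhb at 972 and 847 against 68.3 and 93.2 (3.49 ± 0.20, adjusted p = 6.5e-07). For glycogen 15 of 21 were higher in brown and 0 in white, with the glycogen-targeting subunit Ppp1r3c at 405 and 352 against 47.5 and 54.7 (2.89 ± 0.27, adjusted p = 2e-05). With muscle as a covariate glycogen gave 2 and 0 of 21 (median 0.17), triglyceride synthesis 6 and 1 of 27 (median 0.48), lipolysis 5 and 1 of 27 (median 0.63), de novo lipogenesis 2 and 2 of 22 (median -0.13) and glycolysis 9 and 1 of 29 (median 0.78).

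Cholesterol synthesis gave few calls: 4 of 24 genes were called higher in brown and 1 in white, against 61.1% called among all genes, and the median was 0.01 (-0.01 under median-of-ratios scaling). Hmgcs1 was at 513 and 457 CPM against 276 and 316 (0.71 ± 0.13, adjusted p = 0.00102). The calls of Pmvk, Fdft1 and Mvd were lost when 1 library was left out. Pmvk (0.65) had an adjusted p of 0.0706 without white replicate 1. Fdft1 (0.99) had 0.121 without brown replicate 2 and 0.0818 without white replicate 1. Mvd (-0.79), the member higher in white, had 0.0929, 0.0788 and 0.256 without brown replicate 1, brown replicate 2 and white replicate 2. Creatine and calcium cycling gave 12 higher in brown and 5 in white of 20, but 5 tested members were among the muscle-marked genes defined below, and without them 8 of 15 were higher in brown (median 0.47). The calcium release channel Itpr2 was at 303 and 332 against 28.9 and 41.4 (3.17 ± 0.16, adjusted p = 4.83e-07), and Atp2a2, the widespread calcium pump, at 471 and 427 against 242 and 214 (0.98 ± 0.11, adjusted p = 2.9e-05). Creatine kinase Ckb was at 54.9 and 67.1 against 49.3 and 39.2 (0.47 ± 0.15, adjusted p = 0.0188), a call lost without brown replicate 2 (adjusted p = 0.148) or white replicate 2 (0.137). With muscle as a covariate cholesterol synthesis gave 1 and 0 of 24 (median -0.06) and creatine and calcium cycling 4 and 3 of 20 (median -0.56), and Hmgcs1 (0.13 (adjusted p = 0.69)), Pmvk, Fdft1, Mvd and Ckb were not called.

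Among signalling genes, 13 of 29 tested adrenergic and cAMP genes were higher in brown and 4 in white (median 0.49). Adenylate cyclase 3 (Adcy3), which makes cAMP below the beta receptors, was at 476 and 439 CPM against 39.1 and 49.7 (3.36 ± 0.17, adjusted p = 4.28e-07). The stimulatory G protein subunit Gnas was at 5510.3 and 6119 against 974 and 922 (2.62 ± 0.14, adjusted p = 5.22e-07). In the thyroid hormone list 8 of 10 were higher in brown and 1 in white, with the receptor Thrb at 55.9 and 57.6 against 19.4 and 21.9 (1.46 ± 0.15, adjusted p = 2.2e-05). Secreted factors leaned to white, 21 of 32 against 6 in brown (median -1.15). Vegfa, which drives vessel growth, was among those higher in brown, at 1058 and 1094 against 335 and 392 (1.57 ± 0.12, adjusted p = 2.99e-06), as was Nampt of NAD synthesis (1.90 ± 0.12, adjusted p = 1.25e-06). Bmp7 was low in both depots but higher in white, at 5.0 and 8.34 against 0.346 and 0.302 (by 4.36 ± 0.39 (SE) on the log2 scale, adjusted p = 7.4e-06). The thyroid list gave 1 and 1 of 10 (median 0.34) under the muscle covariate, the adrenergic list 6 and 0 of 29 (median 0.54) and secreted factors 3 and 9 of 32 (median -1.61).

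More general regulators divided between the depots. Of adipocyte identity regulators 20 of 36 tested were higher in brown and 6 in white (median 0.44), with the mitochondrial transcription factor Tfam at 51.5 and 56 CPM against 30.2 and 31.3 (0.81 ± 0.08, adjusted p = 1.45e-05) and the nuclear receptor Rxrg at 55.3 and 56.5 against 21.5 and 27.4 (1.19 ± 0.15, adjusted p = 6.3e-05). Tcf7l2, an effector of Wnt signals, was at 13.4 and 13 against 39.3 and 40.3 (-1.59 ± 0.11, adjusted p = 2.04e-06). Circadian clock genes gave 9 higher in brown and 4 in white of 19, all animals having been killed in the morning. Clock itself was at 117 and 118 against 73.8 and 75.5 (0.66 ± 0.08, adjusted p = 6.15e-05), and the output factor Hlf at 23.8 and 26.5 against 6.67 and 8.47 (1.73 ± 0.17, adjusted p = 1.25e-05). The unfolded protein and amino acid stress list gave 11 in brown and 14 in white of 28, and immediate early genes 6 and 3 of 19, where 29.0% of all genes were higher in brown and 32.1% in white. With muscle as a covariate the stress list gave 3 and 4 of 28 (median -0.17), immediate early genes 1 and 1 of 19 (median 0.17), identity regulators 5 and 4 of 36 (median 0.33) and clock genes 3 and 3 of 19 (median 0.74), and Rxrg and Clock were not called.

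On the white side, genes of matrix, stroma and immune cells prevailed. Of the collagens and matrix genes 31 of 37 were called higher in white and 0 in brown (median -2.20). The membrane protease gene Mmp14 was at 273 and 262 CPM in white and 29.5 and 24 in brown (by 3.33 ± 0.13 (SE) on the log2 scale, adjusted p = 3.51e-07), and the proteoglycan decorin (Dcn) at 528 and 524 against 144 and 140.0 (by 1.89 ± 0.13 (SE) on the log2 scale, adjusted p = 1.78e-06). Of the adipocyte progenitor list 18 of 25 were higher in white and 2 in brown. Dpp4, a surface marker of early progenitors, was at 36.3 and 39.8 against 3.39 and 1.32 (by 4.13 ± 0.30 (SE) on the log2 scale, adjusted p = 3.26e-06), with -4.84 and -3.49 (brown minus white) without brown replicate 1 and 2, and Cd34 at 211 and 186 against 54.8 and 67.5 (by 1.70 ± 0.12 (SE) on the log2 scale, adjusted p = 1.9e-06). Wnt, BMP and TGF-beta signalling gave 30 of 45 in white and 5 in brown, with the activin subunit Inhbb at 72.7 and 121 against 1.73 and 3.17 (by 5.23 ± 0.42 (SE) on the log2 scale, adjusted p = 1.18e-05). This signalling list gave 0 and 14 of 45 (median -1.28) under the muscle covariate, progenitor genes 0 and 16 of 25 (median -2.37) and matrix genes 0 and 26 of 37 (median -2.47).

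All 22 macrophage genes were called higher in white (median -2.87), with summed CPM of 2212 and 1190.1 in white and 281 and 196 in brown. Adgre1, which encodes F4/80, was at 46.1 and 23.6 against 7.13 and 5.66 (by 2.46 ± 0.29 (SE) on the log2 scale, adjusted p = 5.7e-05), and Cd68 of macrophage lysosomes at 66.2 and 23.1 against 8.23 and 4.38 (by 2.86 ± 0.48 (SE) on the log2 scale, adjusted p = 0.000918). White replicate 1 was the higher library in both, and without it Cd68 gave -1.91 (adjusted p = 0.00064). Of the MHC class II and complement list 22 of 24 were higher in white, with H2-DMa at 13.9 and 13.6 against 4.64 and 5.02 (by 1.51 ± 0.11 (SE) on the log2 scale, adjusted p = 2.28e-06). All 25 interferon-stimulated genes were also called higher in white (median -2.06). The RNA sensor Ifih1 was at 53.8 and 42.9 against 14.7 and 15.1 (by 1.69 ± 0.16 (SE) on the log2 scale, adjusted p = 9.46e-06), and Oasl2 at 120.4 and 58 against 7.54 and 7.78 (by 3.54 ± 0.32 (SE) on the log2 scale, adjusted p = 1.89e-05). Ifit3 was at 129.9 and 50.6 against 6.30 and 7.44 (by 3.70 ± 0.41 (SE) on the log2 scale, adjusted p = 7.74e-05) and the ubiquitin-like Isg15 at 56.8 and 18.7 against 6.02 and 6.87 (by 2.54 ± 0.44 (SE) on the log2 scale, adjusted p = 0.0009). Of the list, 24 of 25 genes were higher in white replicate 1 than in replicate 2, yet all white values of those named lay above the brown ones. Without replicate 1 the differences (brown minus white) of Oasl2, Ifit3 and Isg15 were -2.92, -2.87 and -1.53. Ifit3 and Isg15 were named after their values were seen. With the muscle covariate interferon-stimulated genes gave 0 and 15 of 25 (median -2.41) and macrophage genes 0 and 16 of 22 (median -2.94), and Isg15 (-2.47 (adjusted p = 0.101)) and Cd68 (-3.19 (adjusted p = 0.0652)) were not called.

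A GAAA repeated after any 2 bases, as in the response element of interferon-stimulated genes, stood in 10 of 19 interferon promoters with a sequence (52.6%) against 3.37% of all promoters. Those of Ifit3 (chr19:34583279-34583528, plus strand) and Isg15 (chr4:156200819-156201068, minus strand) hold 2 and 3 matches, which overlap in Isg15.
Ifit3: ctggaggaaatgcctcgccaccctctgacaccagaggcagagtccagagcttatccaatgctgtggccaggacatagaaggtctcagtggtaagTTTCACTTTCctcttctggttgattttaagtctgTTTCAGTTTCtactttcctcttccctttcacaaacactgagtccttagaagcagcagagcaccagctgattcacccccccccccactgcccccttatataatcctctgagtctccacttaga
Isg15: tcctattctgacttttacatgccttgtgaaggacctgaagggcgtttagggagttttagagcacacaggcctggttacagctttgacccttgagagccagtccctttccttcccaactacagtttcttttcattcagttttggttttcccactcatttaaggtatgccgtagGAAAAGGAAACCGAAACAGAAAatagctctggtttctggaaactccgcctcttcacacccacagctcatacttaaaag

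Cell cycle genes were higher in white as well, 25 of 26 (median -2.87), with Pcna not called (-0.12 ± 0.12, adjusted p = 0.408). The proliferation marker Mki67 was at 41.8 and 29.6 CPM in white and 3.04 and 2.91 in brown (by 3.59 ± 0.21 (SE) on the log2 scale, adjusted p = 8.2e-07), and topoisomerase Top2a at 38.3 and 24.1 against 2.14 and 1.62 (by 4.08 ± 0.25 (SE) on the log2 scale, adjusted p = 1.04e-06). All 26 genes were higher in white replicate 1 than in replicate 2, as were 20 of 22 macrophage genes. CCAAT, the site of the factor NF-Y known from cell cycle promoters, stood in 18 of 21 cell cycle promoters (85.7%) against 39.8% of all, and also in all 16 cholesterol synthesis promoters with a sequence. The promoter of Top2a (chr11:99024190-99024439, minus strand) holds 6 matches.
Top2a: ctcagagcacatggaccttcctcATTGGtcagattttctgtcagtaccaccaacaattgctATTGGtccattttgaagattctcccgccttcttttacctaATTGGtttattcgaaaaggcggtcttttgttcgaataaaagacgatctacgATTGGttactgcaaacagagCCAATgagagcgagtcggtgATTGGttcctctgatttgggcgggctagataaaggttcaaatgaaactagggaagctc

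By list median, the largest differences towards white were those of epithelial genes. Of 24 tested members of the mammary and other epithelial list 22 were called higher in white and 0 in brown. The median was -9.83 as fitted and -7.98 with members at 3 counts or fewer in brown set at their bound or ratio. Keratin 8 (Krt8) was at 437 and 377 CPM in white and 0.277 and 0.491 in brown (by 9.93 ± 0.62 (SE) on the log2 scale, adjusted p = 4.2e-06), Krt18 at 314 and 343 against 0.415 and 0.680 (by 9.13 ± 0.40 (SE) on the log2 scale, adjusted p = 5.03e-07) and the adhesion molecule Epcam at 97.5 and 152 against 0.0692 and 0.113 (by 10.23 ± 0.56 (SE) on the log2 scale, adjusted p = 1.32e-06). The progesterone receptor Pgr was at 70.7 and 74.2 in white and had 0 counts in brown, at least 988-fold higher. The basal keratins Krt5 and Krt14 were at 7.85 and 12.7 and at 7.41 and 12.5 in white and at 0 counts in brown, at least 140.0-fold and 135-fold higher. Krt5 missed the threshold without brown replicate 2 or either white library (adjusted p up to 0.0929) and under the muscle covariate (0.11). The oestrogen receptor Esr1, present in both depots, was at 73.2 and 86 against 74.9 and 102 (0.16 ± 0.29, adjusted p = 0.658) and not called. The list took 0.253% and 0.317% of counts in white and 0.00687% and 0.00951% in brown. Its part in other genes higher in white was not tested.

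Epithelial genes also led when all genes were ranked. Of the 12 largest fitted differences towards white among well-expressed genes that did not overlap and were not muscle genes, Dmbt1, a mucosal glycoprotein, was at 210.1 and 184 CPM in white and at 0 counts in brown (at least 2687-fold higher). Krt19 (489 and 660.2 against 0.553 and 0.189), the water channel Aqp5 (143 and 159 against 0.277 and 0.0755), the iodide transporter Slc5a5 (159 and 224 against 0.208 and 0.717), Krt7 and E-cadherin (Cdh1) are likewise known from epithelia, as are Epcam, Krt8 and Krt18. Stanniocalcin 2 (Stc2, by 8.06 (adjusted p = 1.64e-06)), the surface protein gene Ly6d (by 7.98 (adjusted p = 3.51e-07)) and the growth factor pleiotrophin (Ptn, by 7.41 (adjusted p = 2.04e-05)) completed the 12. The brown counts behind these folds were few, and without brown replicate 2 the differences (brown minus white) of Krt19, Aqp5, Slc5a5, Krt7, Stc2 and Cdh1 were -10.00, -9.06, -9.81, -10.07, -7.28 and -10.20. Without brown replicate 1 those of Krt19, Aqp5, Stc2 and Cdh1 were -11.52, -10.85, -8.80 and -6.80. Of the 12 largest differences towards brown, Ucp1, Cox7a1, Cpt1b, Fabp3, Kng2 and Perm1 are described above. The others were the GMP reductase Gmpr (441 and 643 against 5.40 and 4.55, difference 6.77 ± 0.52, adjusted p = 1.36e-05), the fatty acid transporter and acyl-CoA synthetase Slc27a2 (223 and 265 against 2.11 and 5.17, 6.07 ± 0.77, adjusted p = 0.000292) and the mitochondrial malic enzyme Me3 (83.8 and 86.7 against 1.10 and 1.52, 6.02 ± 0.25, adjusted p = 3.51e-07). The carboxypeptidase N subunit Cpn2 (6.01 ± 0.51, adjusted p = 2.36e-05), the short-chain dehydrogenase Dhrs9 (5.32 ± 0.25, adjusted p = 3.51e-07) and the R-spondin receptor Lgr6 (5.25 ± 0.41, adjusted p = 1.14e-05) followed. Without white replicate 2 Slc27a2 gave 6.86 and Cpn2 7.07, and without white replicate 1 Cpn2 gave 5.40. Neither Slc27a2 nor Cpn2 was called under the muscle covariate (adjusted p = 0.263 and 0.162).

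Other cell types differed less or unevenly, beside 29.0% of all genes higher in brown and 32.1% in white. The calls of endothelial genes in both directions, and those of lymphocyte genes towards white, came to shares near these. Endothelial genes gave 8 higher in brown and 6 in white of 23 (median 0.15). The pan-endothelial Pecam1 was at 175 and 196 CPM in brown and 186 and 189 in white (-0.02 ± 0.10, adjusted p = 0.909) and was not called. The VEGF receptor Kdr was higher in brown (1.04 ± 0.11, adjusted p = 2.49e-05) and Plvap, of fenestrated vessels, in white (-2.80 ± 0.21, adjusted p = 4.08e-06). Smooth muscle and pericyte genes gave 4 and 6 of 15, with Acta2 higher in white (-1.71 ± 0.14, adjusted p = 4.58e-06) and the pericyte channel Kcnj8 in brown (1.92 ± 0.15, adjusted p = 2.82e-06). Nerve and Schwann cell genes gave 12 of 18 in white and 1, S100b, in brown. Of 21 lymphocyte genes 7 were higher in white and 1 in brown, with T cell marker Cd3g at 0.702 and 1.47 against 0.138 and 0.378 (by 1.88 ± 0.47 (SE) on the log2 scale, adjusted p = 0.00572, with -2.91 and -1.25, brown minus white, without brown and white replicate 2). The B cell gene Cd79a was called higher in brown (1.11 and 1.09 against 0.395 and 0.713, 0.98 ± 0.38, adjusted p = 0.0431), a call lost without brown replicate 1 or 2 or white replicate 1 (adjusted p up to 0.233). Lymphocyte genes took 0.00964% and 0.0120% of counts in wild type white and 0.344% to 0.449% in transgenic white. Of 9 tested blood genes 1 was called higher in brown and 0 in white, and none of the haemoglobin genes was called. With muscle as a covariate endothelial genes gave 3 and 1 of 23 (median 0.20), smooth muscle and pericyte genes 3 and 4 of 15 (median -0.40), nerve and Schwann cell genes 1 and 3 of 18 (median -2.28) and lymphocyte genes 0 and 5 of 21 (median -0.54), and Cd79a was not called.

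**Figure D3:**
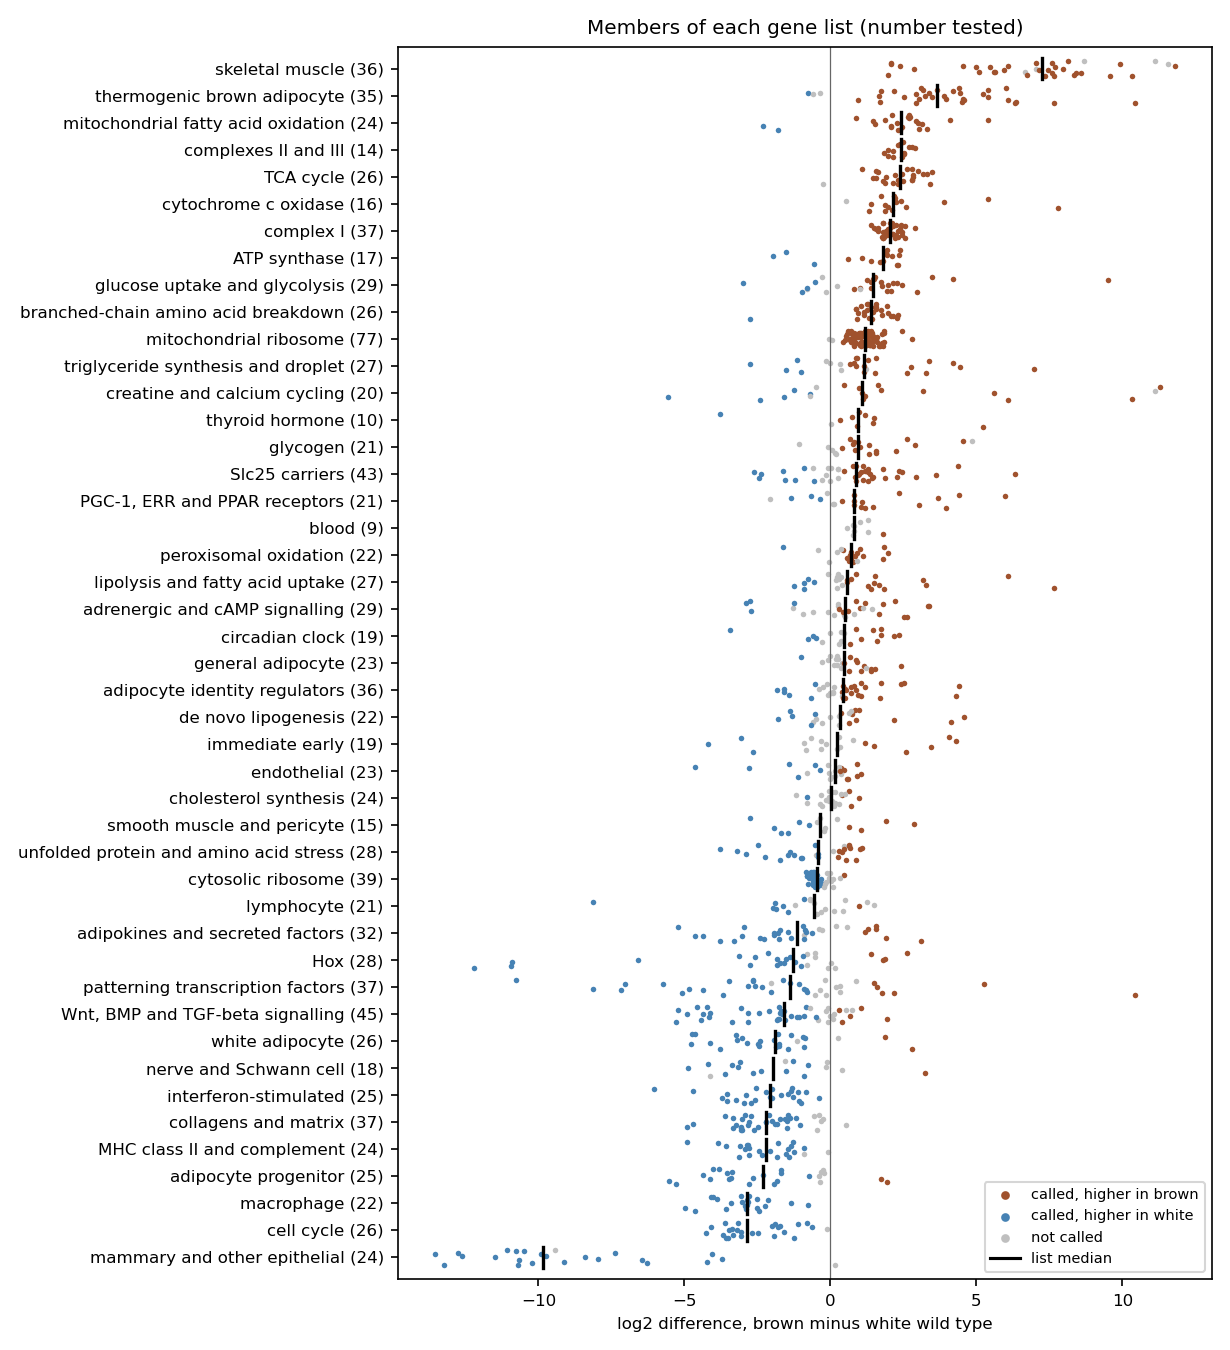
Log2 difference (brown minus white wild type) of every tested member of 45 gene lists, ordered by list median, with called genes in colour. Skeletal muscle and thermogenic genes stand furthest towards brown, epithelial, cell cycle and macrophage genes furthest towards white, and cholesterol synthesis lies at 0.01.

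Skeletal muscle RNA was present in the wild type brown libraries. The summed CPM of the 38 listed muscle genes was 5186 and 2199 in brown and 115 and 127 in white, and ran from 185 to 228 in the 4 transgenic brown libraries. As a share of counts this was 0.417% and 0.183% in wild type brown, 0.0128% and 0.0142% in wild type white and 0.0154% to 0.0195% in transgenic brown. Of 36 tested members 31 were called higher in brown and 0 in white, with a median of 7.24 (7.10 with members at 3 counts or fewer in white at their bound or ratio). Every one of the 36 was higher in brown replicate 1 than in replicate 2. Skeletal actin (Acta1) was at 687 and 229.6 CPM in brown, 4.25 and 1.38 in white and 0.227 to 0.785 in transgenic brown. The fast troponin gene Tnnt3 was at 220.3 and 109, 0.351 and 0.802 and 0 to 0.0714, and the slow myosin gene Myh7 at 36.7 and 25, 0.0439 and 0.134 and 0. The fast myosin Myh4 (821 and 357 in brown), muscle creatine kinase Ckm (370.0 and 151) and parvalbumin (Pvalb, 77.6 and 54.6) were at 0 counts in all 4 transgenic brown libraries.

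Several of these differences were loosely estimated, and 1 of the 2 one-copy white libraries, which share the estimate of spread, also held muscle RNA (0.360% of counts). Acta1 differed by 7.34 (adjusted p = 0.0128), Mylpf by 7.14 (adjusted p = 0.0119) and Tnnt3 by 8.14 (adjusted p = 0.0188), and all 3 missed the threshold without white replicate 1 or 2 (adjusted p = 0.0711 and 0.0915, 0.0929 and 0.0691, 0.116 and 0.103). When 1 wild type library was left out, the difference ran from 6.34 to 8.36 for Acta1, from 6.33 to 8.72 for Mylpf and from 7.55 to 8.85 for Tnnt3. Myh4 (7.06 ± 2.97, adjusted p = 0.0971), Ckm (11.12 ± 4.03, adjusted p = 0.065), Pvalb (8.68 ± 3.24, adjusted p = 0.0708), Actn3 (6.68 ± 2.59, adjusted p = 0.0676) and Xirp2 (0 counts in white, at least 249-fold higher in brown, adjusted p = 0.0705) were not called. These 5 were called with DESeq2, without either one-copy white library and with the 4 wild type libraries alone, where all 36 muscle genes were called higher in brown. Other members were estimated more tightly, and Myh7 (8.35, adjusted p = 6.38e-05), Actn2 (adjusted p = 6.58e-05) and Tnnt1 (adjusted p = 1.21e-05) kept their calls in every alternative run per gene. Under the muscle covariate the list itself gave 5 and 4 of 36 (median -0.44), and Acta1, Mylpf, Tnnt3 and Mb were not called. Listed members that were also well above white in transgenic brown were desmin (Des), at 175 and 131 in wild type brown and 85.5 to 102.9 in transgenic brown, and myoglobin (Mb), at 60.1 and 33.2 and 7.30 to 26, against 17.5 and 24.2 and 0.921 and 1.16 in white.

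To mark genes that moved with muscle, a gene was marked where its mean in wild type brown was at least 8 times that in transgenic brown, with 0.5 CPM added to both. The mark fell on 62 genes, of which 61 were tested, 31 were in the muscle list and 51 were called higher in brown, 1.13% of the 4505 such calls. Without the mark and the list, 4449 genes remained higher in brown and 5002 in white. Genes outside the list that carry the mark are mostly known from muscle, such as the sarcomere genes Myom2 and Nrap, the glycolytic Pgam2 and the mitochondrial creatine kinase Ckmt2. Cox6a2, at 17.6 and 5.21 CPM in wild type brown and 0 in transgenic brown, was among them, with 2 counts over the white libraries and a ratio to white of 217 (exact 95% counting interval 59.6 to 1795). Some marked genes are not known as muscle genes. The heat shock genes Hspa1a and Hspa1b were high in both brown libraries (151 and 281, and 231 and 426). The liver genes Mup20 and Serpina1e were high in brown replicate 2 alone (0.0692 and 8.38, and 1.38 and 31.2). Marked but high in white replicate 1 as well was the sarcomere gene Ldb3, at 56.4 and 5.26 in white against 57.6 and 17.4 in brown. None of the thermogenic, respiratory chain (Cox6a2 aside), TCA or fatty acid oxidation members described above carried the mark, and the median of log2 wild type over transgenic brown was -0.18 for thermogenic, 0.11 for complex I and 5.67 for muscle genes.

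**Figure D4:**
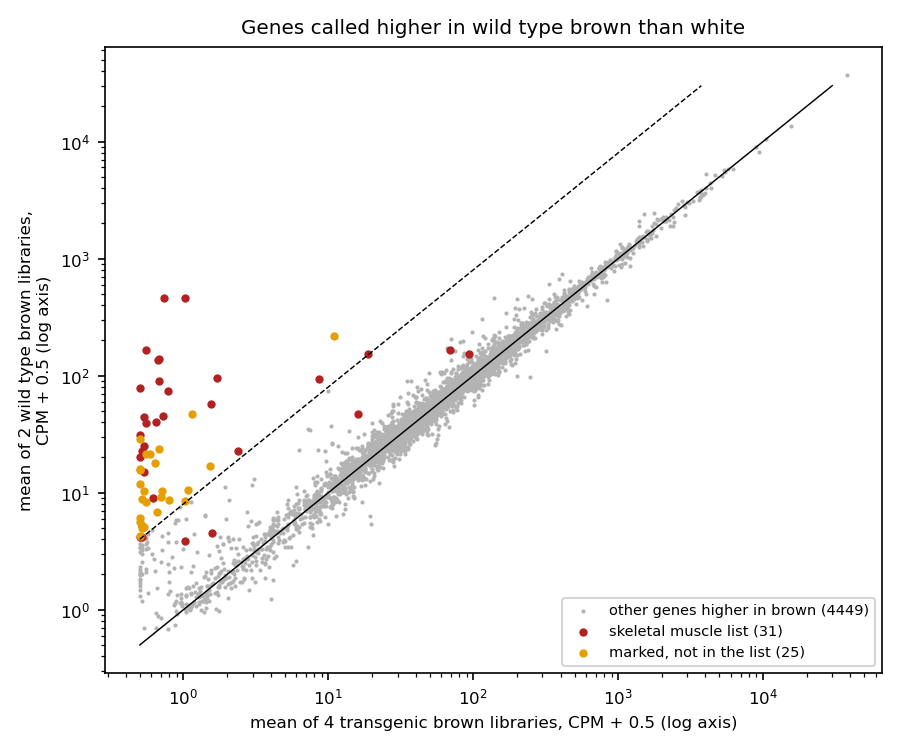
Mean CPM plus 0.5 in wild type brown (vertical) against transgenic brown (horizontal) for each gene called higher in brown, both axes log. Most of the 4449 other genes lie along the solid line of equality, while 31 listed muscle genes (red) and 25 further marked genes (orange) lie mostly above the dashed 8-fold line.

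**Figure D5:**
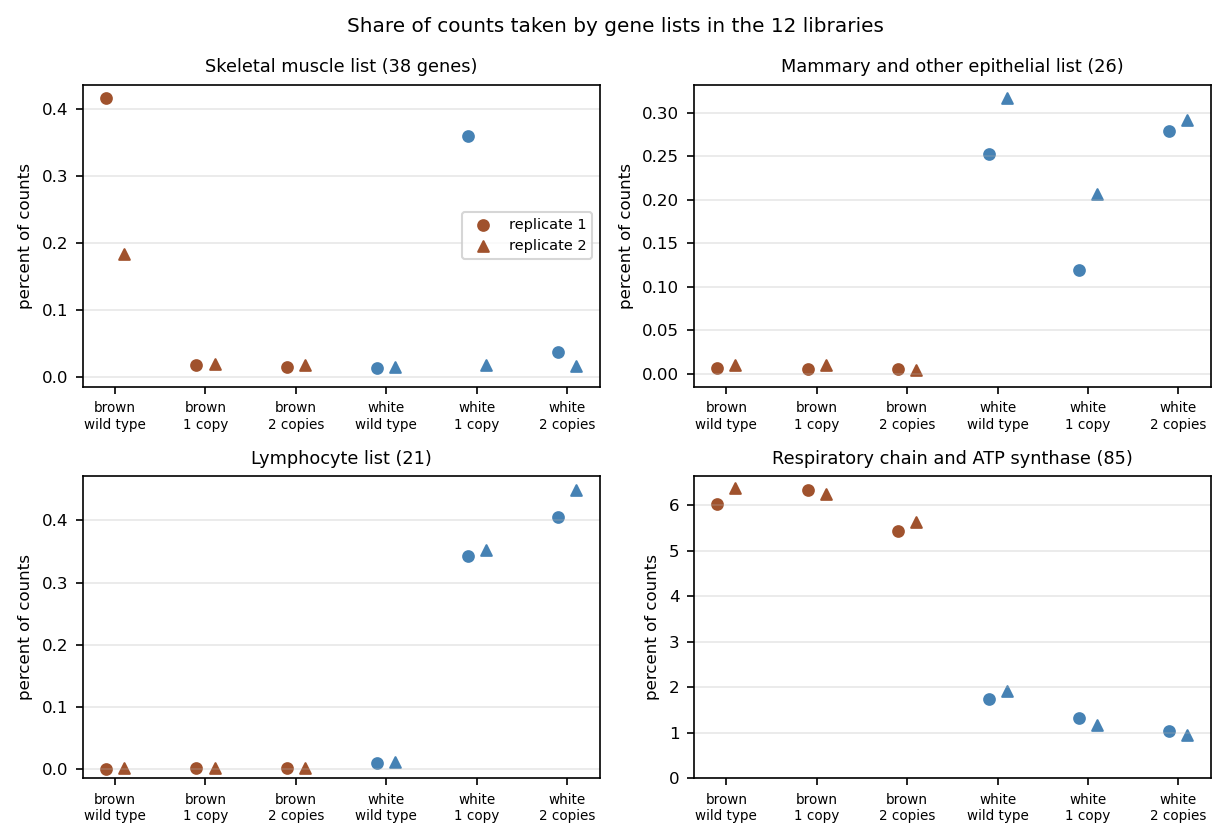
Percent of counts taken by the muscle, epithelial, lymphocyte and respiratory chain lists in the 12 libraries. The muscle share is high in the 2 wild type brown libraries and 1 one-copy white library, the epithelial share in all white libraries, the lymphocyte share in the 4 transgenic white libraries and the respiratory share in all brown libraries.

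The 2 wild type white libraries differed in the thermogenic genes. Of the 35 tested members 30 were higher in white replicate 2 than in replicate 1, with a median log2 ratio of 0.79 (0.5 CPM added), against 20 and 0.02 between the brown libraries. The TCA cycle showed 25 of 26 higher in replicate 2 (0.33) and de novo lipogenesis 19 of 22 (0.47). Macrophage genes ran the other way, with 2 of 22 higher in replicate 2 (-0.97), as did collagens and matrix with 6 of 37 (-0.31). These are values of single libraries with no test. In brown, the list with the highest median ratio of replicate 2 to replicate 1 was that of immediate early genes, with 17 of 19 higher in brown replicate 2 (0.77). Nr4a3, an early response receptor, was at 16.7 and 97.6 CPM in brown and 2.06 and 4.77 in white (4.08 ± 0.84, adjusted p = 0.00364), and the difference was 2.29 without brown replicate 2. It was not called under the muscle covariate (adjusted p = 0.0913).

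Brown and white libraries of the transgenic mice, which share none with the wild type ones, were compared in the same way. All 3 comparisons came from 1 fit with a shared estimate of spread per gene, so their calls are not independent. Of the 4505 genes higher in wild type brown, 3244 (72.0%) were also called higher in brown with 1 copy, which is 70.8% of the one-copy calls, and 3346 (74.3%, and 67.0% of the two-copy calls) with 2 copies. Called in the opposite direction were 396 and 326. Of all genes, 70.1% were called with 1 copy and 74.4% with 2, and 29.4% and 32.1% were higher in brown. Of the 5002 genes higher in wild type white, 3834 (76.6%, and 60.7% of the one-copy calls) and 3977 (79.5%, and 60.4%) were also higher in white, with 106 and 206 opposite, where 40.6% and 42.3% of all genes were. The depot difference, taken with its sign, differed between wild type and one-copy mice for 5076 genes (32.6%). Between wild type and two-copy mice it differed for 6568 (42.2%). All 3 genotypes shared 3087 brown-higher (68.5%) and 3603 white-higher genes (72.0%). The thermogenic list gave 33 of 35 higher in brown with 1 copy and 33 with 2, complex I gave 37 of 37 in both, and the muscle list 3 and 4 of 36 higher in brown against 18 and 8 in white. For Hoxc10 the transgenic brown libraries were likewise at 0, and Zic1 ran from 8.85 to 17.2 CPM in them.

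A set of 14 short motifs was searched on both strands of the 250 upstream bases, and for most of them the share in promoters of genes at least 2-fold apart lay near that of all 11943 promoters. TNAAGGTCA, the longer receptor half-site that contains AAGGTCA, stood in 1.03% towards brown, 0.962% towards white and 0.921% of all. ACTTCCGG, an ETS site, stood in 5.86% towards brown but 2.09% towards white and 5.89% of all, and the spaced GAAA repeat in 2.00%, 5.65% and 3.37%. These are descriptions of letters in a window, chosen after the expression values were known.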

How the data were processed

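Polyadenylated RNA of brown and white fat was sequenced in 12 libraries, 2 for each of 6 groups of depot and transgene copies, after Trizol and column extraction and a stranded mRNA library kit, per the labels' protocols. The authors deposited raw counts per gene. The submitters' processing notes name STAR, featureCounts (Subread) and mm10, while versions, annotation and strand setting are not given in the sources used here, so genes that share reads with near copies or overlap a neighbour are uncertain. Total counts ran from 15679884 to 31814056 per library.

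From these counts, edgeR 4.0.16 (R 4.3.3, limma 3.58.1) was run on all 12 libraries with filterByExpr, TMM scaling and 1 mean per group (6 residual degrees of freedom), because 4 libraries alone give a poor estimate of spread. Wild type brown minus wild type white was tested with the robust quasi-likelihood F test and Benjamini-Hochberg adjustment over all 15559 tested genes at 0.05. The standard error is the log2 difference divided by the square root of F. The pipeline was tested on simulated data with few changed genes, balanced in direction, and the same spread for all genes. That setting differs from these data, where 61.1% of genes were called, so it does not test scaling or error control here. Where 1 depot had 0 counts, the fold is a bound with that depot at 3 counts over the group. Intervals and bounds cover counting error only. Isoform shares used exon lengths from the GENCODE vM21 basic annotation.

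Of 45 gene lists, some genes stand in several. The text names genes with known depot roles and their isoform partners, the 12 largest differences per direction (called, mean log2 CPM of at least 3, not overlapping, outside muscle genes), up to 5 members per list by adjusted p, members not called where 5 or fewer, and cell type markers. The members, lists and motifs were chosen with earlier results of these data known. Some genes named by the rule are not reported here. Alternatives were median-of-ratios scaling, DESeq2 1.42.0, other filters, muscle genes removed or as a covariate, the 4 wild type libraries alone, fold thresholds, and each library left out.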

Additional observations from a re-analysis of the deposited data

Results flagged for a closer look

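The depot difference was set against that of transgenic mice by a test of the difference itself (edgeR's quasi-likelihood test, adjusted p below 0.05). Values here are differences of log2 differences (each brown minus white), wild type minus transgenic. A negative value means a lower ratio of brown to white in wild type mice, whichever depot was higher. Against one-copy mice 5076 genes differed (32.6% of those tested) and against two-copy mice 6568 (42.2%), and the 2 comparisons share the wild type libraries.

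Skeletal muscle genes stood at the top. Acta1 differed by 15.91 against one-copy and 11.80 against two-copy mice, Atp2a1 by 19.80 and 15.72, Cox6a2 by 16.68 and 16.63, and Pygm, muscle glycogen phosphorylase, by 6.74 against one-copy mice. The muscle list took 0.417% and 0.183% of counts in wild type brown, 0.0154% to 0.0195% in transgenic brown and 0.360% in 1 one-copy white library, and its part in these values was not tested. Cox6a2 has groups at 0 counts, so its sizes depend on the fit's prior and are no measure of a fold. Atp2a1 was at 0 to 0.50 CPM in transgenic brown, so its sizes rest on values near 0 and are no firm measure either.

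Lymphocyte genes came next. Cd79a, of the B cell receptor, differed by 8.75 and 8.10, and the T cell factor Tcf7 by 6.64 and 6.98. Cd79b differed by 6.79 against one-copy mice, and lymphotoxin beta (Ltb) and the T cell adaptor Grap2 by 7.74 and 6.93 against two-copy mice. Lymphocyte genes took 0.344% to 0.449% of counts in transgenic white and 0.00964% and 0.0120% in wild type white, and their part in these values was not tested.

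Several thermogenic and other adipocyte genes had smaller depot differences in wild type than in two-copy mice. Against two-copy mice Ucp1 differed by -9.12, Cpn2 by -5.15, the proton channel Otop1 by -5.12, Elovl3 by -5.09, Cidea by -4.47 and liver-type glycogen synthase Gys2 by -4.30. Of these 6, only Otop1, with -1.48 (adjusted p = 0.0312), and Gys2, with -1.78 (adjusted p = 0.0127), also passed the test against one-copy mice. There Ucp1 gave -0.82 (adjusted p = 0.811), Cidea -1.25 (adjusted p = 0.22), Elovl3 -0.34 (adjusted p = 0.851) and Cpn2 -1.36 (adjusted p = 0.235). In white, Ucp1 was at 0.419 and 0.142 CPM in two-copy mice and 14.9 and 190.2 in wild type mice. Cidea was there at 5.24 and 3.68 against 67.4 and 156. In brown, Ucp1 was at 9837 and 14596 in two-copy and 9064 and 7180 in wild type mice. Brown Cidea was at 2141 and 2116 against 2345 and 2471. The Ucp1 value against two-copy mice (SE 2.88) thus rests on white values near 0. Against one-copy and two-copy mice, in that order, Plin5 differed by -1.86 and -3.58, Pparg by -1.06 and -2.26, Fabp4 by -0.99 and -2.06, Adrb3 by -1.26 and -2.03, and Adipoq by -0.89 and -1.55. The widespread isoforms Cox7a2, Cox8a and Cox6a1 differed by -0.76 and -0.92, by -0.50 and -0.96 and by -0.66 and -1.26, and Ckb by -0.87 and -1.61. Against one-copy mice the most negative were Zbtb8a (-3.17), the interferon-stimulated Rsad2 (-2.83), the adrenergic receptor Adra1d (-2.82), the chemokines Ccl6 (-2.75) and Ccl9 (-2.62), and the apelin receptor Aplnr (-2.67).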

How the results depend on the processing

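Without any one of the 12 libraries 8101 to 9659 genes were called between wild type depots, and median-of-ratios scaling, DESeq2, other filters and removal of muscle genes gave 8923 to 9492, with 0 shared calls in the opposite direction. The 4 wild type libraries alone gave 7886 calls (3716 higher in brown, 4170 in white) among 14477 genes tested. These held 81.6% of the main calls, with 0 in the opposite direction. Requiring more than 1.5-fold with all 12 libraries left 5450 (2127 higher in brown, 3323 in white) and more than 2-fold 3501 (1111 and 2390). With the muscle list's mean as a covariate, 3494 were called (1462 and 2032), 7 of the shared calls in the opposite direction, and the comparisons with one-copy and two-copy mice gave 451 (332 and 119) and 2048 (942 and 1106). The list's mean log2 CPM differed between wild type depots by 6.47. Within groups it differed by at most 4.33, in the one-copy white pair, and elsewhere by at most 1.66. The slope thus rests mostly on that pair, and depot overlaps with the covariate. Under it the thermogenic list gave 16 of 35 higher in brown and complex I 37 of 37, and these turned sign: Ucp1 to -2.08, Elovl3 -0.17, Atp2a1 -1.67, Ckm -2.40, Actn3 -5.02, Myh4 -6.34, Pvalb -2.42, Acta1 -0.59, Mylpf -0.47, Tnnt3 -1.64, Fabp4 -0.32, Plin1 -0.12, Pmvk -0.0342, Pcna 0.11 and Pecam1 0.16. Against one-copy mice Pygm turned to -3.11 and Atp2a1 to -2.11, and against two-copy mice Atp2a1 to -2.10. An epithelial covariate, chosen after seeing the data and run for counts, left 1 call (0 higher in brown, 1 in white), opposite to that gene's call without it, and turned the sign of 62 of the 276 called genes followed below, which are not listed one by one. Its list differed by 7.64 between depots and within groups by at most 0.899. Against one-copy mice the genes with a smaller difference in wild type numbered 1265 to 2113 without 1 library, with 1265 and 1280 without brown one-copy replicates 1 and 2 and 1276 without white one-copy replicate 2. Median-of-ratios scaling moved the share of larger differences from 57.6% to 43.9% there, and the cholesterol list median to -0.0147. Not called genes crossed 0 without 1 library: Lhx8 from -0.72 to 0.18, Esr1 from -0.088 to 0.37, Pcna from -0.28 to 0.0628 and Pecam1 from -0.098 to 0.0641.

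Of 276 called genes followed, a set completed after values were seen, 188 kept their call in every alternative run per gene, 15 lost it without 1 library, 69 with the muscle covariate (7 of them with the sign turned), 51 with the 2-fold threshold, 0 with DESeq2 and 6 (among them Ckb, Fdft1, Mvd, Cd79a and Cdh5) with the 4 wild type libraries alone. The causes were not tested. No paired analysis was possible because the labels carry library numbers and no pairing of brown with white samples. With 2 libraries per depot, genes under about 1 CPM are the least certain.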
